A study of Mus musculus with 2 samples.

Results

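T cells of the mouse rib repair callus were chosen by UMI counts (unique molecular identifiers, each standing for 1 captured RNA molecule) from 2 single-cell RNA libraries, as cells with at least 200 detected genes, under 10% mitochondrial UMIs, at least 2 UMIs summed over Cd3d, Cd3e, Cd3g and Trbc2 with at least 1 of them from a Cd3 gene, and under 2% of UMIs from the collagen genes Col1a1, Col1a2 and Col3a1. This left 191 T cells of 19564 cells that passed the limits on genes and mitochondrial UMIs, 51 in the control library and 140 in the Smo cKO library. The whole series held 21259 cell barcodes.

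The calluses were collected 4 days after a large-scale rib resection in adult mice of both sexes. Control animals carried Sox9:CreER;R26:tdT;Smof/+, so that 1 copy of Smo was floxed, and Smo cKO animals carried Sox9:CreER;R26:tdT;Smof/f. Both groups therefore carried the tamoxifen-inducible Cre driven from Sox9 and the tdTomato Cre reporter, and received tamoxifen on consecutive days in the week before surgery. Smo encodes the transducer of Hedgehog signals, and the study asked what the early callus contains when cells of the Sox9 lineage cannot receive such a signal. Sox9 marks skeletal progenitors and chondrocytes and is not a driver made for T cells. Calluses of 3 animals were pooled in each library, giving 1 library per genotype. No test between genotypes was therefore possible, differences between animals cannot be told apart from the genotype, and every interval below is a 95% interval for counting error only.

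T cells are lymphocytes that recognise antigen through a clonal receptor, either an alpha beta or a gamma delta chain pair, which signals through the invariant CD3 chains. CD8 T cells kill target cells, CD4 T cells help other immune cells, regulatory T cells restrain them, and many gamma delta T cells sit in tissues and make interleukin 17 soon after injury. In fracture repair T cells are known as sources of cytokines that act on osteoclast and osteoblast precursors.

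Both libraries were deeply sequenced, with 105367110 UMIs over 10747 barcodes in the control library and 112700220 over 10512 in the Smo cKO library. The T cells were small cells in RNA terms, with a median of 1399 UMIs and 628 genes in the control library and 1682 UMIs and 694 genes in the Smo cKO library, against medians of 8419 and 9235 UMIs in all other kept cells. In all, the control T cells held 126005 UMIs and the Smo cKO T cells 532566. A small number of T cells carried much of this RNA: 4 control cells and 16 Smo cKO cells with over 2000 detected genes held 41.8% and 56.4% of the T cell UMIs. In these deep cells the summed level of 7 connective tissue markers (Col1a1, Col1a2, Col3a1, Dcn, Lum, Postn and Sparc) was 8762 CPM (UMIs scaled to a total of 1000000) for control cells and 16592 CPM for Smo cKO cells, compared with 3611 and 2856 CPM in the T cells of at most 2000 genes. The study left out cells above 2000 genes, so values are also given for the remaining 47 control and 124 Smo cKO T cells. Some 613 barcodes occurred in both libraries, 2 control and 2 Smo cKO T cells had such a barcode, and 0 T cell barcodes were shared.

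The values that chose the cells were low. The rule genes gave a median of 3 UMIs per control T cell, with a maximum of 12, and a median of 4 with a maximum of 25 in the Smo cKO library. Cd3d was detected in 33 control and 100 Smo cKO T cells, Cd3e in 28 and 77, Cd3g in 37 and 80, and Trbc2 in 24 and 100. Each of these genes encodes a chain of the receptor complex. Cd3g, Cd3d and Cd3e lie together on mouse chromosome 9 (GRCm38, chr9:44969572-44980431 on the minus strand, chr9:44981786-44987339 on the plus strand and chr9:44998740-45009627 on the minus strand), and Trbc2 lies at chr6:41546730-41548352 on the plus strand.

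Cells at the edge of the rule were examined through 19 T cell identity genes that the rule did not use, such as Trac, Cd2, Cd28, Il7r and Icos. Thy1 was left out of these shares, since 50.9% of control and 61.1% of Smo cKO collagen-rich cells had a UMI of it. At least 1 UMI of these genes was present in all 19 control cells and in 27 of 30 Smo cKO cells with exactly 2 rule UMIs, and in 31 of 32 and 108 of 110 cells with 3 or more. Just outside the rule, 15 of 25 control and 37 of 65 Smo cKO cells with 1 Cd3 UMI had such a UMI. Of cells with Trbc2 UMIs and no Cd3 UMI, 14 of 50 control and 23 of 57 Smo cKO cells had an identity UMI (median 22355 and 22870 UMIs). All 6 control and 11 Smo cKO cells that were left out for a collagen share of 2% or more also had one, with their lowest collagen shares at 2.35% and 2.09%, while the highest shares inside the rule were 0.931% and 1.89%. As background, 14.9% of control and 18.2% of Smo cKO macrophage-rich cells (median 2443 and 3240 UMIs) and 10.8% and 11.9% of collagen-rich cells (median 10156 and 12164 UMIs) had a UMI of the identity genes. An identity UMI was present in nearly all chosen cells, 50 of 51 control and 135 of 140 Smo cKO T cells. Natural killer cells shared some of these genes, with Cd2 in 4 of 9 control cells and Cd28 in 6 of 18 Smo cKO cells. Il7r was detected in 1 of 9 control and 0 of 18 Smo cKO natural killer cells. Having 1 identity UMI thus does not by itself tell a T cell from a natural killer cell. Icos, an inducible costimulatory receptor of activated T cells that was named as a marker but not used by the rule, was detected in 19 of 51 control T cells (37.3%) and 52 of 140 Smo cKO T cells (37.1%). It was seen in 0 of 1043 control and 1 of 1402 Smo cKO macrophage-rich cells, and in 0 of 9 control and 2 of 18 Smo cKO natural killer cells. Rag1, Rag2 and Dntt, which mark immature T cells of the thymus, had 0 UMIs in both libraries.

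With the rule genes left out, genes that were most enriched in the chosen cells over all other kept cells, and that had at least 50 UMIs in each library, were led by Hcst, an adaptor of activating receptors, 24.1-fold above other cells in the library where its ratio was lower. It was followed by the chemokine Ccl5 (20.5-fold), Vps37b (16.9-fold) and the G protein regulator Rgs1 (14.6-fold). Crem (11.4-fold), Cd52 (9.10-fold), Rgs2 (8.51-fold), Srgn (7.22-fold), Ptpn18, Bcl2a1b, Emb, Laptm5, Rora, H2-K1 and H2-D1 completed the first 15, the last of them at 2.73-fold. These ratios describe the cells that the rule chose.

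T cells made up 0.507% of kept cells in the control library (51 of 10057, interval 0.378 to 0.666%) and 1.47% in the Smo cKO library (140 of 9507, 1.24 to 1.74%). The Smo cKO share was 2.90 times the control share, a difference of 0.965 percentage points (0.691 to 1.25). B lineage cells, found with their own markers, went the same way, with 16 control and 47 Smo cKO cells (0.159% and 0.494%). Natural killer cells numbered 9 and 18, too few to show a difference beyond counting error (difference 0.0998 points, -0.00654 to 0.218). Macrophage-rich cells were 10.4% and 14.7% of kept cells, and collagen-rich cells 52.4% and 41.1%. The T cell ratio was somewhat smaller against immune cells alone: among cells with a UMI of Ptprc, the pan-leukocyte gene that encodes CD45, T cells were 22 of 1169 in the control (1.88%) and 57 of 1415 in the Smo cKO library (4.03%), a ratio of 2.14. Drawing every cell down to 1000 UMIs left 23 control and 90 Smo cKO T cells and a ratio of 4.02. The shares are of cells in the dissociated suspension, so a gain of T cells and a loss of other cells cannot be told apart.

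**Figure D1:**
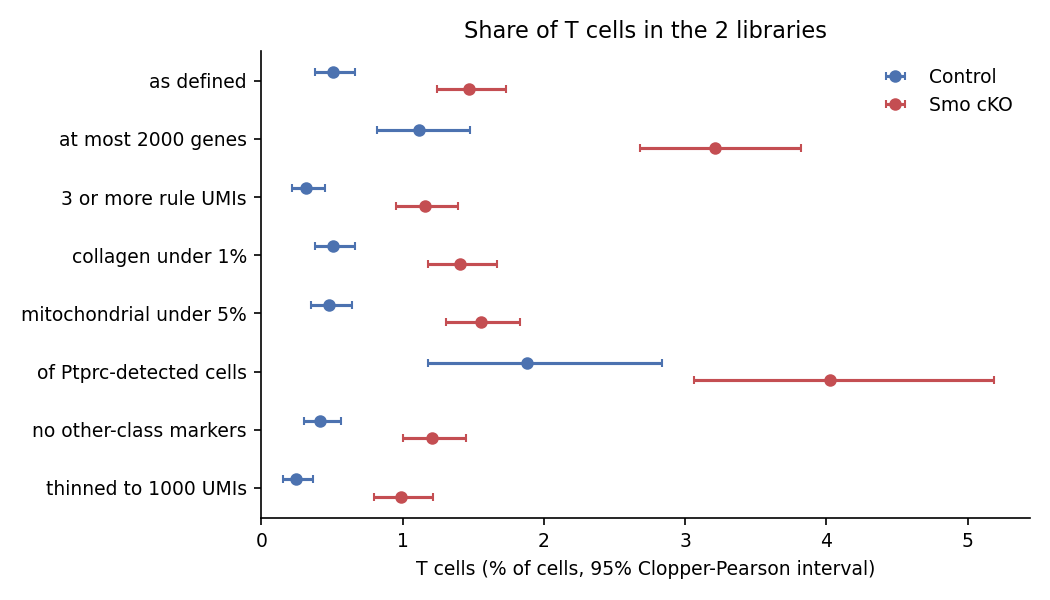
T cells as a percentage of cells (horizontal axis) in the control and Smo cKO libraries under the main rule and 7 other settings (vertical axis); points are shares and bars 95% Clopper-Pearson intervals for counting error. The Smo cKO point lies to the right of the control point in every setting, with ratios between 2.14 and 4.02.

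T cell subsets were read from genes that the rule did not count, in a fixed order: Foxp3, then Trdc without Cd4 or Cd8b1, then Cd8a or Cd8b1 without Cd4, then Cd4 alone, then Cd4 with Cd8. Trdc encodes the constant region of the receptor delta chain (chr14:54142851-54148868, plus strand). The Trdc gate held 11 of 51 control T cells (21.6%, 11.3 to 35.3%) and 22 of 140 Smo cKO T cells (15.7%, 10.1 to 22.8%). Cells of the Cd8 gate numbered 2 among control T cells (3.92%, 0.478 to 13.5%) and 23 among Smo cKO T cells (16.4%, 10.7 to 23.6%). These 2 intervals overlapped, and this was the gate with the widest gap between the libraries at 12.5 points (1.84 to 20.1). Cd4 cells were 2 (3.92%) and 10 (7.14%), and Foxp3, the defining factor of regulatory T cells, was detected in 1 and 2 cells.

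The remaining 35 control and 83 Smo cKO cells (68.6% and 59.3%) showed none of the gate genes, and 0 cells fell in the gate of Cd4 with Cd8. With so few UMIs per cell, a missed transcript can leave a cell in no gate, and a missed Cd4 or Cd8b1 transcript can move it to another. At 1000 UMIs per cell, which left out 11 control and 9 Smo cKO cells, the Trdc gate held 8 of 40 control and 14 of 131 Smo cKO cells (10.7%), the Cd8 share 2.50% and 13.0%, and the Cd4 share 2.50% and 3.05%. The drawn Cd4 shares rested on 1 and 4 cells (0.0633 to 13.2% and 0.838 to 7.63%), and macrophage-rich cells, which also transcribe Cd4, had it in 2.39% and 1.11% at the same depth, and in 4.70% and 3.50% undrawn. The Cd4 gate is read no further. Trdc and Cd8 gates held 0 macrophage-rich cells in both libraries, and in collagen-rich cells they held 2.33% and 2.40% for Trdc and 0.152% and 0.281% for Cd8. Among natural killer cells the Trdc gate held 0 of 9 control and 2 of 18 Smo cKO cells (11.1%, 1.38 to 34.7%). That Smo cKO interval includes the share of the Smo cKO T cells. The Cd8 gate held 0 natural killer cells in both libraries.

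**Figure D2:**
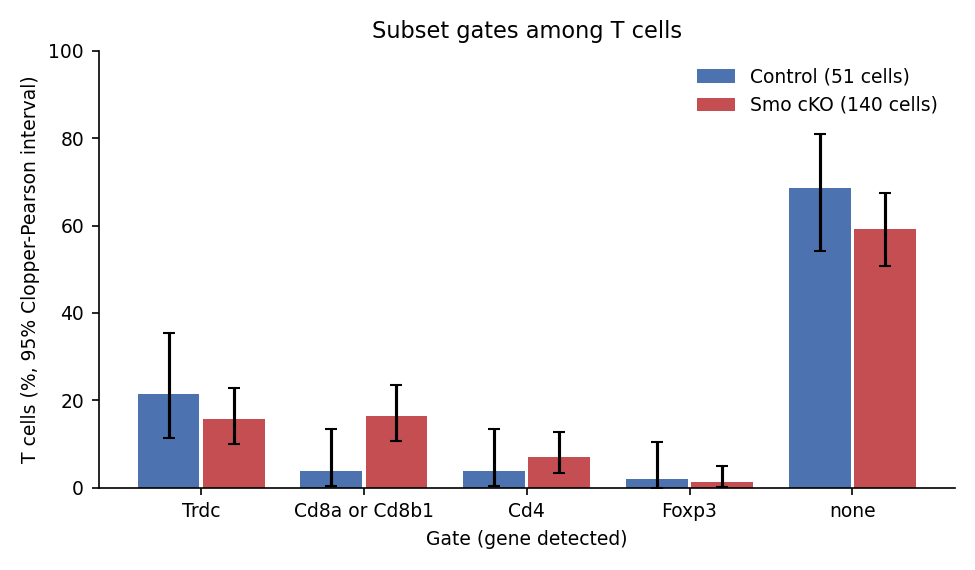
Percentage of T cells (vertical axis) in each subset gate (horizontal axis) for 51 control and 140 Smo cKO T cells; bars are shares and whiskers 95% Clopper-Pearson intervals for counting error. The Trdc gate held 21.6% of control and 15.7% of Smo cKO T cells, and cells with Cd8a or Cd8b1 3.92% and 16.4%.

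Receptor constant genes gave a second view of the same division. Trac, which encodes the alpha chain constant region (chr14:54220521-54224206, plus strand), was detected in 6 control T cells (11.8%) and 46 Smo cKO T cells (32.9%), or 10.0% and 17.6% at 1000 UMIs per cell. The Trdc gene stood at 34 UMIs in 11 control cells and 104 UMIs in 23 Smo cKO cells. Only 1 cell in each library held UMIs of both Trac and Trdc, whose products belong to different receptors. Any gamma delta constant gene (Trdc, Tcrg-C1, Tcrg-C2 or Tcrg-C4) was detected in 21 control cells (41.2%) and 43 Smo cKO cells (30.7%), and no constant gene of either kind in 13 and 14. With Trac, Trbc1 and Trbc2 counted as the alpha beta kind, 14 control (27.5%) and 32 Smo cKO cells (22.9%) held UMIs of both kinds. Trbc1 and Trbc2, and the Tcrg-C genes among themselves, are near-identical copies whose reads can be exchanged or dropped in counting, so their single values are uncertain.

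The 33 Trdc-gated and 25 Cd8-gated cells of both libraries differed in other genes. Of the Trdc-gated cells, 23 had a UMI of Il7r, the interleukin 7 receptor, 20 of Tcrg-C1, 19 of the chemokine receptor Cxcr6, 19 of Tmem176a, 18 of the nuclear receptor Rora and 15 of Ramp1, a subunit of the receptor for the nerve peptide CGRP. Among the Cd8-gated cells 7 had a UMI of Il7r, 0 of Tcrg-C1, 1 of Cxcr6, 1 of Tmem176a, 7 of Rora and 0 of Ramp1.

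The Cd8 gate carried the other set. Ccl5 was detected in 19 of its 25 cells, Nkg7, a granule membrane protein of killer cells, in 16, the adhesion receptor Cd2 in 15 and Trac in 12. In the Trdc gate the same genes were seen in 2, 1, 3 and 2 of 33 cells. The lymph node homing receptor Ccr7 was detected in 7 Cd8-gated and 0 Trdc-gated cells. All 3 Foxp3-detected cells had UMIs of Tnfrsf4, Tnfrsf18 and Ikzf2, genes that regulatory T cells typically transcribe, and 2 of them had Ctla4. The 118 cells without a gate gene were mixed, with Icos in 47, Cxcr6 in 32, Ccl5 in 32 and Trac in 31.

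**Figure D3:**
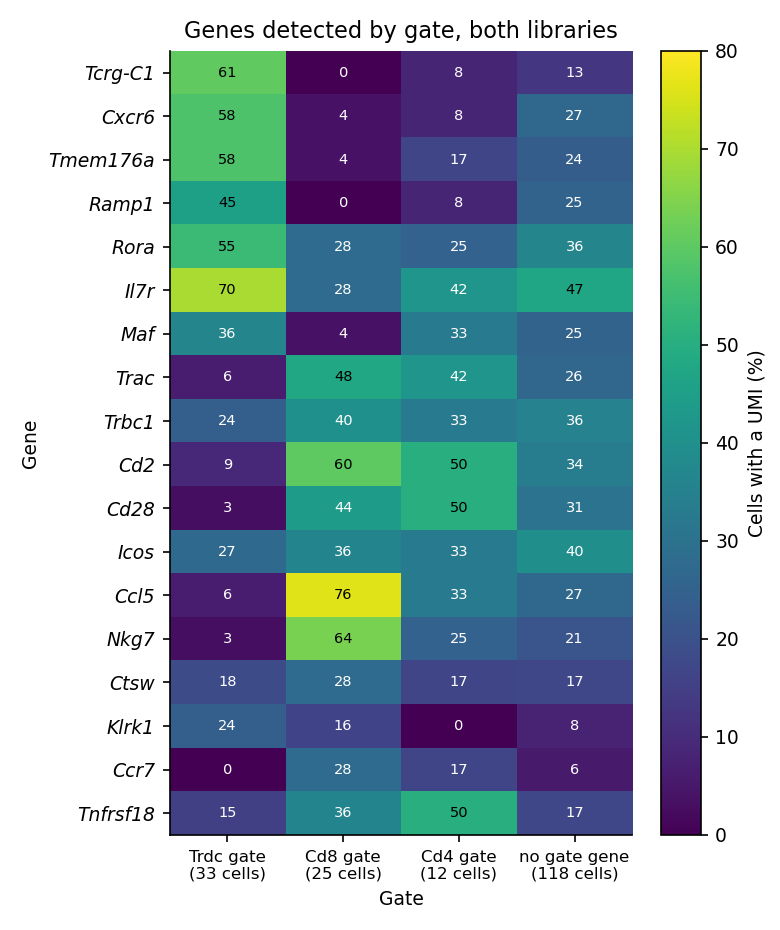
Percentage of T cells of both libraries with at least 1 UMI (colour and printed value) for 18 genes (rows) in 4 gates (columns; 33, 25, 12 and 118 cells). Tcrg-C1, Cxcr6, Tmem176a and Ramp1 were detected in a larger share of the Trdc gate than of the other gates, and Ccl5, Nkg7, Cd2 and Trac most often in the Cd8 gate.

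Across the transcriptome of the T cells, 1617 genes had at least 50 UMIs over both libraries. Their median log2 ratio of Smo cKO over control CPM was -0.01, and the Smo cKO T cells were 2-fold or more above the control for 116 genes (7.17%) and 2-fold or more below it for 44 (2.72%). These counts are the background for each gene group below. In the cells of at most 2000 genes 666 genes reached 50 UMIs, 35 of them (5.26%) past 2-fold upward and 19 (2.85%) past 2-fold downward in the Smo cKO library. Of 128 genes that stood at least 2-fold above other kept cells in both libraries, 3 were 2-fold higher and 11 were 2-fold lower in the Smo cKO T cells.

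Summed over their list, genes of gamma delta and interleukin 17 producing T cells were lower in the Smo cKO T cells. The 21 listed genes summed to 227 UMIs (1802 CPM) in the control and 483 UMIs (907 CPM) in the Smo cKO T cells, a log2 ratio of -0.99 (-1.22 to -0.76), and 44 of 51 control cells (86.3%) against 77 of 140 Smo cKO cells (55.0%) held at least 1 UMI of them. Of the detected genes 16 were lower and 3 higher in CPM, and among 6 genes with 50 UMIs 2 lay below by 2-fold or more and 0 above by as much, with a median of -0.88. In T cells of at most 2000 genes the summed log2 ratio was -0.79 (-1.04 to -0.54), and in all other kept cells it was -0.16. The receptor constant genes of the list did not carry this difference beyond counting error. Trdc stood at -0.47 (-1.04 to 0.14) in all T cells. In those of at most 2000 genes Trdc stood at -0.23, Tcrg-C1 at -0.26, Tcrg-C2 at 0.04 and Tcrg-C4 at 1.34, all with intervals that include no difference.

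Ramp1 (chr1:91179822-91225196, plus strand) had 32 UMIs in 19 control cells and 43 UMIs in 27 Smo cKO cells, or 254 and 80.7 CPM, a log2 ratio of -1.65 (-2.35 to -0.95). Tmem176a, an ion channel gene that gamma delta and interleukin 17 producing cells transcribe, had 37 UMIs in 22 control and 51 in 28 Smo cKO cells (-1.62, -2.26 to -0.97). Tmem176a was not particular to T cells, with a UMI in 63.9% of control and 62.1% of Smo cKO collagen-rich cells, which were deeper. In macrophage-rich cells the shares were 26.4% and 26.9%. The Tmem176a ratio was also low in B lineage cells, at -1.63 (-2.58 to -0.74). It stood at -0.14 in macrophage-rich and -0.19 in collagen-rich cells. Maf, a transcription factor of interleukin 17 producing cells, had 26 UMIs in 16 and 56 in 32 cells (-0.97, -1.67 to -0.24). For all 3 genes the Smo cKO library held more UMIs in total and a lower CPM, since it held more T cell RNA.

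Rora, a nuclear receptor of the interleukin 17 program (chr9:68653786-69388246, plus strand), had 55 UMIs in 25 control cells and 86 in 49 Smo cKO cells, a log2 ratio of -1.43 (-1.94 to -0.92). Il17a itself was close to the limit of detection, with 7 UMIs in 3 control cells, 5 of them in 1 cell, and 4 UMIs in 4 Smo cKO cells. Il17f was at 0 in both libraries. At 1000 UMIs per cell, Ramp1 was detected in 22.5% of control and 12.2% of Smo cKO T cells, against 37.3% and 19.3% without the draw, and Rora in 37.5% and 22.1%, against 49.0% and 35.0%. The drawn intervals overlapped for both genes (10.8 to 38.5% and 7.15 to 19.1% for Ramp1, 22.7 to 54.2% and 15.4 to 30.2% for Rora). As background, collagen-rich cells had Rora in 8.04% and 6.27% at the same depth, and in 54.1% and 52.1% undrawn.

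Ramp1 and Rora were also compared within gates. Among Trdc-gated cells Ramp1 stood at 317 CPM (128 to 654) in the 11 control cells and 145 CPM (77.2 to 248) in the 22 Smo cKO cells, and Rora at 499 (249 to 893) and 234 CPM (145 to 358). These intervals overlapped. Among cells with no gate gene the intervals were apart, with Ramp1 at 288 CPM (187 to 426) in 35 control and 84.3 CPM (56.5 to 121) in 83 Smo cKO cells, and Rora at 484 (349 to 655) and 142 CPM (105 to 188). In T cells of at most 2000 genes the log2 ratio of Ramp1 was -1.06 and that of Rora -1.01, against -1.65 and -1.43 in all T cells.

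Outside that list, the 8 lowest ratios among T cell enriched genes included, with Ramp1 and Rora, 2 regulators of transcription. Crem, a cyclic AMP responsive transcription factor, had 70 UMIs in 24 control and 120 in 66 Smo cKO cells (log2 ratio -1.30, -1.74 to -0.86), and Elf1, an ETS factor, had 32 UMIs in 18 and 58 in 45 cells (-1.22). Cdc42se2 (-1.49), Smap2 (-1.16), the cold-inducible RNA binding protein gene Cirbp (-1.15) and Emb (-1.15), which encodes the adhesion protein embigin, were the others. In all other kept cells Rora (-0.40), Elf1 (-0.39), Emb (-0.47) and Cirbp (-0.34) were also lower, by smaller amounts. Ramp1 (0.35), Crem (0.18), Cdc42se2 (0.16) and Smap2 (0.03) were not lower there. In cells of at most 2000 genes the ratio of Crem was -0.89 (-1.38 to -0.40), that of Elf1 -0.60 (-1.36 to 0.21) and that of Smap2 -0.79 (-1.86 to 0.36). The intervals of Elf1 and Smap2 include no difference there.

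The 8 highest ratios among T cell enriched genes followed the same rule, with a minimum of 50 UMIs summed over both libraries. Since the Smo cKO T cells held more RNA, a gene could reach this minimum through that library alone, as Ms4a4b and H2-Q4 did. Such genes were chosen in part by their high Smo cKO counts, and their control counts are small. Ms4a4b, a membrane protein of T cells, had 5 UMIs in 4 control cells and 72 UMIs in 37 Smo cKO cells, a log2 ratio of 1.77 (0.48 to 3.43). The class I gene H2-Q4 had 5 UMIs in 4 and 51 in 39 cells (1.27, -0.04 to 2.95). Ctla2a, which encodes a cysteine protease inhibitor, had 37 UMIs in 13 control and 326 in 71 Smo cKO cells (1.06, 0.57 to 1.59). In all other kept cells the ratios of these genes were 1.12, 1.17 and 0.42.

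Tnfrsf18, which encodes the costimulatory receptor GITR, had 9 UMIs in 7 control and 71 UMIs in 36 Smo cKO cells (0.90, -0.11 to 2.09), and Cd2 had 13 in 9 and 87 in 56 cells (0.66, -0.19 to 1.63). In cells of at most 2000 genes these ratios were 1.62 and 1.18. AW112010 (0.82, against 1.00 in all other kept cells), Sept6 (0.79) and Gimap4 (0.79), a GTPase gene of lymphocytes, made up the rest of the 8. The summed list of 15 costimulatory and inhibitory receptors was level between the libraries in all T cells (log2 ratio -0.03, -0.34 to 0.29) and higher in the Smo cKO library in cells of at most 2000 genes (0.79, 0.42 to 1.18).

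**Figure D4:**
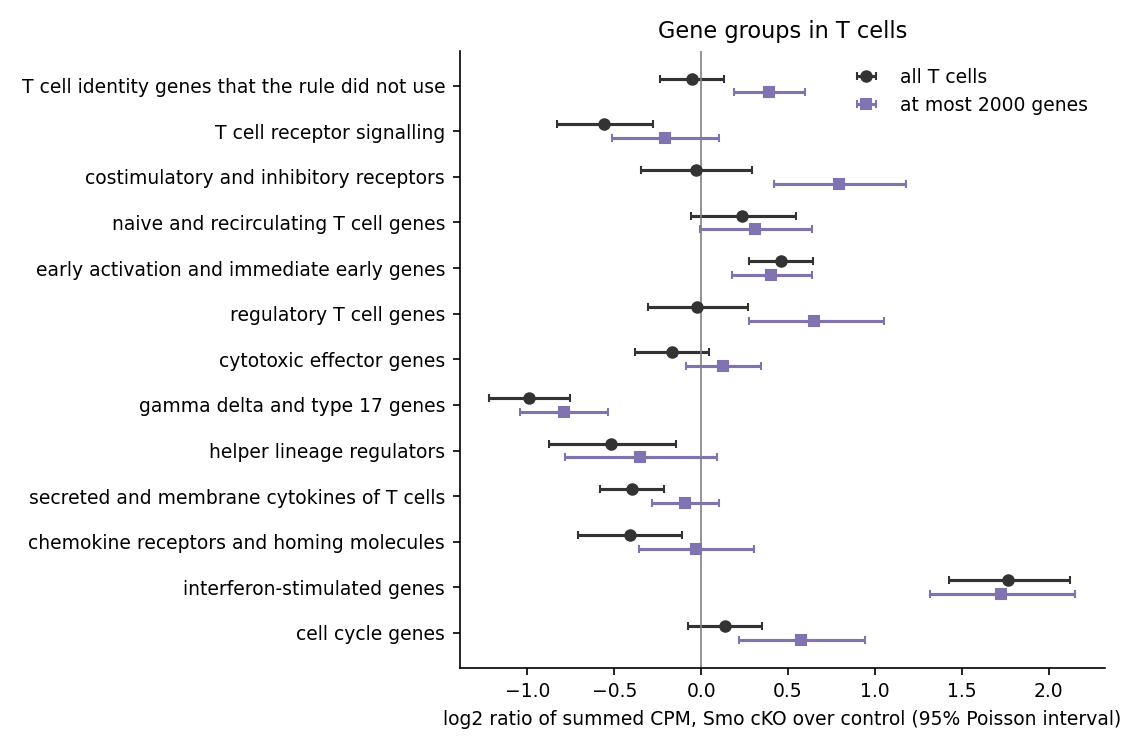
Log2 ratio of summed CPM, Smo cKO over control (horizontal axis), for 13 gene groups (vertical axis) in all T cells and in T cells of at most 2000 genes; points are ratios and bars 95% Poisson intervals for counting error. Interferon-stimulated genes lie at 1.77 and 1.72, and gamma delta and type 17 genes at -0.99 and -0.79.

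Summed over their list, genes that carry the signal from the receptor stood lower in the Smo cKO T cells. The 17 signalling genes summed to 147 UMIs (1167 CPM) and 422 UMIs (792 CPM), a log2 ratio of -0.56 (-0.83 to -0.28), with 12 genes lower and 5 higher by any amount. Separately, 5 members had at least 50 UMIs. Of these, 0 lay 2-fold or more above or below, against 7.17% and 2.72% of all tested genes. The adaptor Lat had 24 UMIs in 18 control cells and 69 in 49 Smo cKO cells (-0.56, -1.25 to 0.18). Lck, the kinase that starts the cascade, had 10 in 8 and 53 in 38 cells (0.33, -0.66 to 1.47). In cells of at most 2000 genes the group stood at -0.21 (-0.51 to 0.10), so that its difference was within counting error there. The 4 members with 50 UMIs in those cells had a median log2 ratio of 0.24.

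Early activation and immediate early genes, which are switched on within minutes of a stimulus and also by tissue dissociation, were higher. The 17 genes summed to 282 UMIs (2238 CPM) in control and 1636 UMIs (3072 CPM) in Smo cKO T cells, a log2 ratio of 0.46 (0.27 to 0.64), with 13 higher in CPM. All other kept cells had a log2 ratio of 0.43 for the same genes, from 2377 to 3199 CPM. Fos had 10 UMIs in 7 control and 147 in 40 Smo cKO T cells (1.80, 0.88 to 2.89), and Jun 6 in 6 and 130 in 37 cells (2.36, 1.20 to 3.83). Junb, by contrast, was level at 83 UMIs in 34 and 335 in 92 cells (-0.07). Cd69, an early activation receptor that also retains T cells in tissue, had 3 UMIs in 3 and 37 in 25 cells (1.55, -0.11 to 3.89). The part of dissociation in these values was not tested.

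Genes of naive and recirculating T cells were thinly covered. The 12 genes gave a log2 ratio of 0.24 (-0.06 to 0.54). Il7r, which is shared with tissue T cells, was their most abundant member, with 36 UMIs in 23 control and 136 in 69 Smo cKO cells (-0.16). Ccr7, the receptor that guides T cells to lymph nodes, had 1 UMI in the control and 23 UMIs in 15 cells of the Smo cKO library (2.44, -0.18 to 7.81).

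Cytotoxic effector genes as a group did not differ beyond counting error in all T cells (-0.17, -0.38 to 0.05) and stood higher, at 0.84, without cells that carried markers of another class. At unequal depth, 20 of 51 control (39.2%) and 78 of 140 Smo cKO T cells (55.7%) had a UMI of them. The same list was detected in 5.56% and 10.7% of macrophage-rich and 7.44% and 13.7% of collagen-rich cells. Ccl5 made up most of the group, with 185 UMIs in 12 control cells and 566 in 45 Smo cKO cells, and 1 control cell alone held 76 of them. Nkg7 had 17 UMIs in 8 and 100 in 38 cells (0.48, -0.27 to 1.31). The granule protease Gzmb had 1 UMI in the control and 37 UMIs in 16 cells of the Smo cKO library (3.13, 0.56 to 8.47). Prf1, which encodes perforin, had 0 and 5 UMIs.

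Cytokines were dominated by Ccl5 and by Ltb, which encodes a membrane lymphotoxin, with 41 UMIs in 23 control and 135 in 62 Smo cKO cells (-0.36, -0.87 to 0.18). Xcl1, a chemokine for cross-presenting dendritic cells, had 16 UMIs in 3 and 95 in 15 cells (0.49, -0.28 to 1.35). Tgfb1 had 16 in 13 and 58 in 40 cells, and Tnfsf11, which encodes the osteoclast factor RANKL, had 7 in 5 and 17 in 11 cells (-0.80, -2.14 to 0.71). Ifng was found in 1 control and 5 Smo cKO cells, with 4 and 12 UMIs. Il5, Il13, Il21 and Csf2 had 0 UMIs in both libraries, and the 27 cytokine genes gave a summed log2 ratio of -0.40 (-0.58 to -0.21) in all T cells and -0.09 (-0.28 to 0.10) in those of at most 2000 genes, and of 0.29 without cells that carried markers of another class.

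Among chemokine receptors and homing molecules, Cxcr6, a receptor of tissue-resident T cells, had 21 UMIs in 14 control and 55 in 39 Smo cKO cells. That was 27.5% and 27.9% of T cells, or 10 of 40 control and 20 of 131 Smo cKO cells at 1000 UMIs per cell, and a log2 ratio of -0.69 (-1.44 to 0.11). It was detected in 0 and 1 natural killer cells. Ccr2 was detected in 10 control and 26 Smo cKO cells (19.6% and 18.6%, or 6 of 40 and 14 of 131 at 1000 UMIs). Cxcr4, the receptor for CXCL12, a chemokine that retains cells in bone marrow, had 9 UMIs in 9 control cells (17.6%) and 29 UMIs in 25 Smo cKO cells (17.9%), or 10.0% and 8.40% at 1000 UMIs, a log2 ratio of -0.39 (-1.51 to 0.87) that includes no difference. Macrophage-rich cells, which were deeper, had Cxcr4 in 38.8% and 37.2% of cells, so its transcript is not particular to T cells.

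Regulatory T cell genes (16 genes, log2 ratio -0.02, -0.31 to 0.27) and cell cycle genes (21 genes, 0.13, -0.08 to 0.35) did not differ between the libraries beyond counting error over all T cells. In cells of at most 2000 genes they were higher in the Smo cKO library at 0.65 (0.27 to 1.05) and 0.57 (0.22 to 0.94), while without cells that carried markers of another class they stood at 0.80 and -0.11. Top2a, a marker of dividing cells, was detected in 7 control and 19 Smo cKO T cells. Helper lineage regulators stood at -0.52 (-0.88 to -0.14) over 12 genes, and at -0.35 (-0.78 to 0.09) in cells of at most 2000 genes, and Rora held most of their UMIs in the control library. Il1rl1, which encodes the interleukin 33 receptor and sits in this list and the regulatory one, had 6 UMIs in 3 control cells and 88 in 17 Smo cKO cells, of which 48 came from 1 cell. It also led the list of 7 group 2 innate lymphoid genes. That list had 11 UMIs in 6 control and 128 in 33 Smo cKO T cells (1.46, 0.57 to 2.50). In cells of at most 2000 genes its ratio was 1.10 (0.08 to 2.30).

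Interferon-stimulated genes, the antiviral program that cells switch on when an interferon binds its receptor, gave the largest ratio of the T cell programs. The 40 genes present in the files summed to 76 UMIs (603 CPM, 475 to 755) in the control and 1092 UMIs (2050 CPM, 1931 to 2176) in the Smo cKO T cells, a log2 ratio of 1.77 (1.43 to 2.12). At least 1 such UMI was found in 27 of 51 cells from the control (52.9%) and 130 of 140 from the Smo cKO library (92.9%), or in 37.5% and 84.0% at 1000 UMIs per cell. Of the 40 genes 36 were higher in CPM in the Smo cKO T cells and 4 lower. Of the 36, however, 20 had 0 UMIs in the control T cells, which held less RNA. In T cells of at most 2000 genes the log2 ratio was 1.72 (1.32 to 2.15).

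Isg15, a ubiquitin-like protein made under interferon, had 0 UMIs in control T cells and 65 UMIs in 25 Smo cKO T cells, and was at least 5.13-fold higher when the control is set at the 3 counts that an observed 0 allows. The exact interval of its log2 ratio, which covers counting error in both libraries, started below that bound, at 2.02. In cells of at most 2000 genes it had 18 UMIs in 15 cells, at least 1.90-fold higher on the same floor, with an exact log2 interval from 0.48. Irf7, the factor that amplifies interferon production, had 0 UMIs in the control and 54 in 21 cells of the Smo cKO library, at least 4.26-fold higher, with an interval that started at 1.74. In cells of at most 2000 genes it had 16 UMIs in 11 cells, at least 1.69-fold higher on that floor, with an exact log2 interval from 0.29. Ifi27l2a had 25 UMIs in 9 control and 300 in 69 Smo cKO cells (1.51, 0.92 to 2.16), and Bst2, which encodes the virus tether tetherin, had 18 in 9 and 142 in 38 cells (0.90, 0.19 to 1.70), or 10 and 40 UMIs in cells of at most 2000 genes (0.34, with an interval that includes no difference). Zbp1, a sensor of nucleic acids, had 1 UMI in the control and 42 UMIs in 25 cells of the Smo cKO library (3.31, 0.76 to 8.65). At 1000 UMIs per cell Isg15 was detected in 0 of 40 control and 4.58% of Smo cKO T cells, Irf7 in 0 of 40 and 8.40%, Ifi27l2a in 22.5% and 35.9%, and Bst2 in 4 of 40 and 18.3%. The intervals of all 4 pairs of shares overlapped.

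The higher level was not particular to T cells. All other kept cells went from 438 to 1702 CPM, a log2 ratio of 1.96. Macrophage-rich cells stood at 1766 and 5294 CPM, collagen-rich cells at 431 and 1498 CPM, and B lineage cells at 1067 and 2045 CPM. Natural killer cells stood at 872 CPM (559 to 1297) in 9 control cells and 1058 CPM (808 to 1362) in 18 Smo cKO cells, the single class whose intervals overlapped. Compared with the other kept cells of the same library, 10 of the 40 genes were 2-fold or more higher in control T cells and 9 in Smo cKO T cells, and 15 and 24 were higher by any amount. The 20 genes at 0 in control T cells count there as lower. In the Smo cKO library Irf7 stood at 101 CPM in T cells and 49.6 CPM in other cells, Zbp1 at 78.9 and 26.1 CPM, and Isg15 at 122 and 166 CPM.

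**Figure D5:**
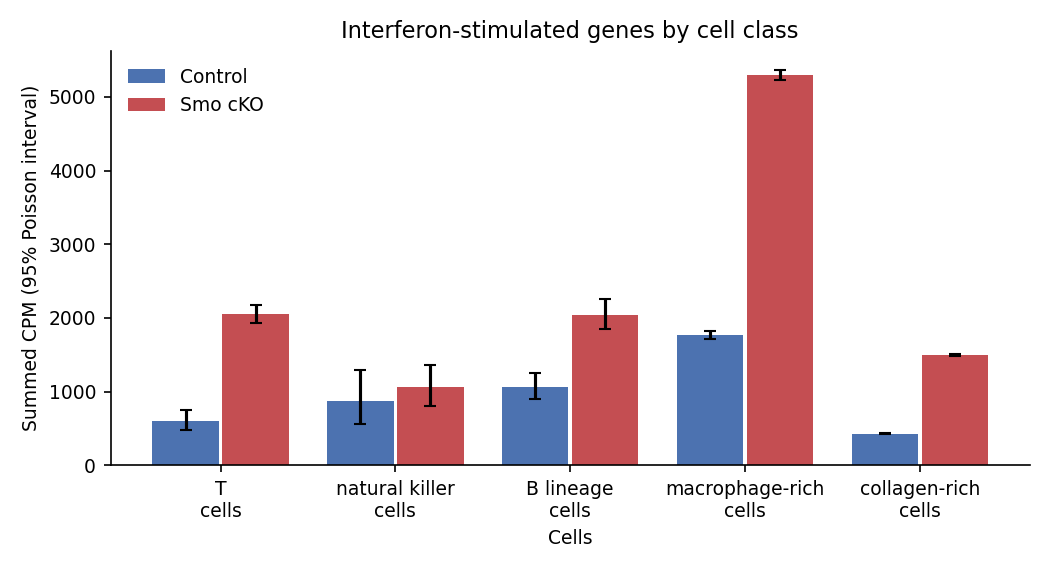
Summed CPM of 40 interferon-stimulated genes (vertical axis) in 5 classes of cells (horizontal axis) of the control and Smo cKO libraries; bars are levels and whiskers 95% Poisson intervals for counting error. T cells stood at 603 and 2050 CPM, below macrophage-rich cells at 1766 and 5294 CPM.

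Some promoters of these genes hold letters that interferon-activated factors are known to bind, and 2 are printed to show them. Within the 250 bases before the start (RefSeq, GRCm38.p6), the letters GAAANNGAAA, read on either strand with overlapping matches allowed, occurred in 18 of 37 promoters of the list (48.6%) and in 978 of 32851 promoters in the whole table (2.98%). The 37 promoters belonged to 31 genes, some with more than 1, and 17 of the 31 had a match. Ifi27l2a, Zbp1 and 7 other genes of the list had no entry. Capitals mark the overlapping matches, 3 in Isg15 (chr4:156200855-156200916, minus strand, 78 to 57 bases before the start) and 2 in Bst2 (chr8:71537567-71537622, minus strand, 130 to 115 bases before the start). The promoter of Irf7 held no such match in this window. A match is a description of the letters and was not measured as a binding site here.
Isg15: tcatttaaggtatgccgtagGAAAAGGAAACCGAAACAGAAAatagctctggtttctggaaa
Bst2: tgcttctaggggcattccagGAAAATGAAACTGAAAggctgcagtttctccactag

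Hedgehog pathway genes were thinly detected in T cells. The 12 genes summed to 3 UMIs in control and 16 in Smo cKO T cells, of which Gli3 held 10. That was 23.8 CPM (4.91 to 69.6) and 30.0 CPM (17.2 to 48.8), against 66.8 and 57.1 CPM in all other kept cells, so that the control interval includes the level of the other cells. Smo (chr6:29735503-29761365, plus strand) had 0 and 1 UMI, Ptch1, the receptor and a target of the pathway, had 1 and 2, and Gli1, its most direct target, 0 in both. These counts are at or near the limit of detection at this depth. The TdTomato transcript had 1 UMI in control and 0 in Smo cKO T cells, and 59 and 154 in all other kept cells.

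Transcripts of other cell types were present and differed between the libraries. By counts of their own markers, 9 control T cells (17.6%) and 25 Smo cKO T cells (17.9%) also met a marker rule of another immune, endothelial or muscle class. The 7 connective tissue markers had 726 UMIs (5762 CPM) in control and 5648 UMIs (10605 CPM) in Smo cKO T cells, led by Sparc, and all 7 were detected in both. That was below the 36422 and 31305 CPM of other kept cells. Hemoglobin and other erythroid markers stood at 746 and 3322 CPM, with 1 Smo cKO cell holding 1184 of 1769 UMIs and 1098 CPM without it. Neutrophil markers had 5 and 2728 UMIs, of which 2705 lay in 1 Smo cKO cell, led by S100a8 with Csf3r, Cxcr2 and Mmp8 at 0.

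Macrophage markers had 287 and 508 UMIs over 10 genes, led by Lyz2, with 214 and 218 of them in 1 cell each. Of the 7 B lineage markers Ebf1 alone exceeded 2 UMIs in either library, with 5 and 64 UMIs, while Cd79a, Ms4a1 and Pax5 were at 0, and natural killer markers had 8 and 26 UMIs over 8 genes with Klra4, Klra8 and Klri2 at 0 in both libraries. Mast cell markers were at 0, dendritic cell markers had 4 and 17 UMIs led by H2-Ab1, endothelial markers 2 and 54, and muscle markers 7 and 71. In T cells of at most 2000 genes the connective tissue ratio was -0.34 in place of 0.88, and the erythroid ratio 2.71 in place of 2.15. Those Smo cKO cells held 1637 erythroid UMIs, including the 1184 of the single richest cell. With every cell of at most 2000 genes weighted equally the erythroid ratio was 1.88. The part of these transcripts in the T cell values was not tested beyond the settings given.

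Natural killer cells are killer lymphocytes without a rearranged receptor, and were counted beside T cells. T cells were 51 of 60 cells of both classes together in the control (85.0%) and 140 of 158 in the Smo cKO library (88.6%), a difference of 3.61 points (-5.47 to 15.4). Gzma, a granule protease, stood at 2688 and 1958 CPM in natural killer cells and at 7.94 and 30.0 CPM in T cells. Icos stood at 317 and 190 CPM in T cells, with 0 and 3 UMIs in natural killer cells. Ccl5 was shared by both, at 1468 and 1063 CPM in T cells and 1417 and 3175 CPM in natural killer cells.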

How the data were processed

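Single-cell 3' RNA libraries (10x Genomics Chromium) were made from collagenase II and dispase digests of callus, filtered and depleted of dead cells. Reads were aligned to mm10 with Cell Ranger 3.0.2 per the submitters' processing notes, and the authors deposited raw UMI counts per gene and barcode, which were used as deposited. The study's upper limit of 2000 genes was an alternative here, not part of the rule. No doublet caller was run. Cells were read, filtered, summed and drawn in Python 3.11.15 (numpy 2.4.6, scipy 1.17.1, pandas 2.3.3, matplotlib 3.10.9).

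Natural killer cells had 2 or more UMIs of Ncr1, Klrb1c and Klre1 and B lineage cells 2 or more of Cd79a, Cd79b and Ms4a1, each with no Cd3 UMI and the same limits as T cells. Macrophage-rich cells had at least 1% of UMIs from macrophage markers, and collagen-rich cells at least 2% from the collagen genes. CPM was summed UMIs of a gene over summed UMIs of the cells, scaled to 1000000. Shares have Clopper-Pearson intervals, differences of shares Newcombe intervals, and CPM values and ratios exact Poisson intervals. UMIs were summed over cells, so deep cells weigh more, and an observed 0 was set at 3 counts for a lower bound. The computation of ratios was tested on simulated data. Draws to 1000 UMIs left out shallower cells.

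Some listed genes are not reported here. Named genes were the members of 28 fixed lists, the 8 highest and 8 lowest ratios among genes with 50 UMIs that stood 2-fold above other cells in both libraries, and the 15 most T cell enriched genes. The T cell rule, the gates and the lists were chosen with earlier results of these data known, and the interferon result was known among them. Positions are from GENCODE (GRCm38) and promoters from RefSeq (GRCm38.p6). Alternatives changed the limits on genes, rule UMIs, collagen, mitochondrial UMIs, the denominator, the minimum UMIs per gene, the centring and the weight of each cell.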

Additional observations from a re-analysis of the deposited data

Results flagged for a closer look

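Results were looked at again where the log2 ratio between the libraries in T cells and that in all other kept cells had opposite signs, with counting intervals on opposite sides of 0. Of 56 genes whose values are given 14 did so, and of 26 gene groups 4. The 56 were ranked or named genes, among them the 15 most T cell enriched. The same count over all tested genes was not made, so 14 of 56 has no background share and is not read as a result. Among the T cell enriched genes with the lowest ratios these were Ramp1 at -1.65 in T cells and 0.35 in other cells, Cdc42se2 at -1.49 and 0.16, and Crem at -1.30 and 0.18. Among the genes most enriched in T cells they were Ccl5 (-0.47 and 0.80), Vps37b (-0.49 and 0.09), Rgs1 (-0.51 and 0.64), Cd52 (-0.59 and 0.74), Rgs2 (-0.90 and 0.30), Srgn (-0.36 and 0.40), Ptpn18 (-0.51 and 0.23), Bcl2a1b (-0.85 and 1.31) and Laptm5 (-0.80 and 0.25). Maf stood at -0.97 and 0.17. Il1rl1 went the other way, at 1.79 and -0.07, with 48 of its 88 Smo cKO UMIs in 1 cell. In T cells of at most 2000 genes the intervals of Ramp1, Cdc42se2, Crem, Cd52, Laptm5 and Maf still lay below 0. Those of the other 8 genes included 0, with Srgn at 0.40, the sign of the other cells, Rgs1 at -0.07, Vps37b at -0.06, Ccl5 at -0.13, Ptpn18 at -0.19, Bcl2a1b at -0.32, Rgs2 at -0.51 and Il1rl1 at 0.98.

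The gene groups were cytokines (-0.40 and 0.64), chemokine receptors and homing molecules (-0.41 and 0.19), macrophage markers (-1.26 and 0.82) and connective tissue markers (0.88 and -0.22). Without the cell richest in them in each library, macrophage markers stood at 579 and 545 CPM in T cells. In T cells of at most 2000 genes the ratio was -0.39 (-0.84 to 0.08) for macrophage markers, -0.09 for cytokines and -0.03 for homing molecules, all with intervals that include 0, and -0.34 for connective tissue markers, the sign of the other cells. The other kept cells are a mixture, in which macrophage-rich cells were 10.4% of all kept cells for the control and 14.7% for Smo cKO. With 1 library per genotype the differences were not tested.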

How the results depend on the processing

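Of 78 gene and list ratios followed under every setting 17, all smaller than 2-fold in all T cells, changed sign under at least 1, among them Ctla4 (-0.34, to 1.35 with every cell weighted equally and 1.76 when also limited to 2000 genes), Ccl5 (-0.47, to 0.63 without cells with markers of another class), Srgn, Il7r, Ltb and the cytotoxic, cytokine, costimulatory, regulatory, homing, T cell identity and cell cycle groups. Connective tissue markers were not among the 78, and 4 of them that were 2-fold or more higher in all T cells changed sign in cells of at most 2000 genes (Col1a1 from 1.06 to -0.03, Col1a2 from 1.21 to -0.72, Col3a1 from 1.00 to -0.25 and Dcn from 1.31 to -0.83). Of the log2 ratios of genes and lists under other settings, 540 stayed within their counting interval and 83 moved out of it; of the other values 48 stayed and 25 moved. The T cell share was 1.11% and 3.21% (control, Smo cKO) among cells of at most 2000 genes, 0.318% and 1.16% with 3 or more rule UMIs, 1.88% and 4.03% of Ptprc-detected cells, 0.246% and 0.989% at 1000 UMIs per cell, and 1.21% in the Smo cKO library without cells with markers of another class. The Cd4 share of Smo cKO T cells was 3.05% at 1000 UMIs, and the interferon ratio 2.15 with 3 or more rule UMIs. The counts of genes past 2-fold, 116 higher and 44 lower, became 477 and 187 at a minimum of 20 UMIs, 49 and 15 at 100, 35 and 19 in cells of at most 2000 genes, 64 and 24 with 3 or more rule UMIs, and 36 and 17 without cells with markers of another class. With every cell weighted equally 157 were higher and 84 lower.

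Further settings were chosen after seeing the data. Collagen under 1% gave 48 higher and 28 lower genes and a gamma delta and type 17 ratio of -0.68, and at most 2000 genes with equal weights gave 42 and 13. Leaving out the 1 Smo cKO cell rich in neutrophil transcripts gave 114 and 46. Irf7 has no ratio in any setting, being at 0 in the control, and Gzmb has none without cells with markers of another class. No paired analysis was possible because each genotype has 1 library.

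The limits are few cells (51 in the control), low detection per cell, pooled animals, and deep cells that hold 41.8% and 56.4% of the T cell UMIs. The call on receptor signalling, costimulatory, regulatory, cytokine, cell cycle, helper lineage, homing (-0.41 to -0.03) and T cell identity (-0.05 to 0.39) groups differs between all T cells and those of at most 2000 genes, and the cause was not tested.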
